A study of Mus musculus with 20 samples.

Results

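The genes described here are 10 mouse genes of meiosis and of the synaptonemal complex: Hormad1, Syce1, Sycp1, Sycp3, Smc1b, Stag3, Rec8, Dmc1, Sohlh2 and Stk31. They were picked by symbol from a set of known meiosis genes, not by a threshold on their values. The choice was made with earlier results of these data known. Counts of the 10 beside shares of all genes are therefore descriptions. All 10 were found by exact match among the 23361 entries of the count tables. The study followed mouse embryonic stem cells as they were converted in culture to epiblast stem cells, the stem cells of the primed state. Of the lines, PGK is female and E14 is male, and each was sampled at 5 stages: day 0 in 2i, the inhibitor medium of the naive state, and day 4, day 10, days 19 to 23 and days 27 to 30 after a change to medium with activin A and Fgf2 on fibronectin. Each stage of each line has 2 libraries of mRNA, one from each of the experiments named diff2 and diff3, which gives 10 groups and 20 libraries. The late stages pool days: in PGK days 23 and 21 and then day 29 in both experiments, in E14 days 21 and 19 and then days 27 and 30, with the diff2 library first. Since 1 line stands for each sex, the effect of sex cannot be told apart from that of the line, and no germ cells were sampled. Nothing in the labels says how far the experiments were independent, so the p-values measure the spread between these libraries.

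In meiosis the sister chromatids are held by cohesin rings with germ line subunits, and each pair of sisters is organised along a protein axis. Recombination pairs the homologous chromosomes, and the synaptonemal complex then joins their axes along their whole length. In the mouse these genes are used mainly by germ cells. In embryonic stem cells several of them are known to be transcribed at a low level without meiosis, and their promoters are known to be held by a polycomb complex with E2f6, Mga, Max, L3mbtl2 and Pcgf6 or by DNA methylation. In the order used below, Hormad1 is a protein of the unsynapsed axis, Sycp3 builds the axial and lateral elements, Sycp1 the transverse filaments and Syce1 the central element. Smc1b, Stag3 and Rec8 are cohesin subunits, Dmc1 is the strand exchange recombinase, Sohlh2 is a helix-loop-helix transcription factor of early germ cells, and Stk31 is a Tudor domain protein with a kinase-like domain that is found in testis.

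All 10 genes are protein coding and lie on 7 chromosomes of GRCm38 (GENCODE release M21). Hormad1 is at chr3:95559677-95587671 on the plus strand, Syce1 at chr7:140777229-140787852 on the minus strand, Sycp1 at chr3:102818499-102936100 on the minus strand and Sycp3 at chr10:88459569-88473236 on the plus strand. Smc1b is at chr15:85064689-85131964 on the minus strand, Stag3 at chr5:138280240-138312393 on the plus strand and Rec8 at chr14:55618037-55625395 on the plus strand. Dmc1 is at chr15:79561497-79605109 on the minus strand, Sohlh2 at chr3:55182028-55209957 on the plus strand and Stk31 at chr6:49395604-49469501 on the plus strand. No exon of another gene overlaps an exon of these genes, except that 660 bases of Sycp3 exons lie over exons of Chpt1, a phospholipid synthesis gene on the opposite strand. Whether the counting used strand is not given in the sources used here, so reads in those bases cannot be assigned to one of the pair.

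The promoters of the 10 genes held more CG dinucleotides than the median promoter, and 5 of them lay below the upper quartile. Over the 250 bases upstream of the start site, as RefSeq gives them for GRCm38.p6, the 10 genes (12 start sites) held 10 to 26 CG each, and the median over 32851 promoters of 27025 genes was 6, with quartiles of 2 and 16. A window with at least 10 CG, the lowest count among the 10 genes, was found at 37.8% of all promoters. The hexamer TCCCGC or its reverse complement GCGGGA, the core of E2F sites, was found upstream of 5 of the 10 genes (Hormad1, Sycp3, Smc1b, Rec8 and Dmc1), against 16.9% of all promoters and 37.3% of the 12417 promoters with at least 10 CG. The palindrome CACGTG, the E-box that Max and Mga dimers read, was found upstream of 5 genes (Hormad1, Sycp1, Sycp3, Stag3 and Stk31), against 6.02% of all promoters and 9.37% of those with at least 10 CG. Both strands were searched, and a match is a description of the letters only. The windows of 6 genes are shown because they cover the cases of both motifs, either one and neither, among genes called in at least 1 comparison below. Each is written 5′ to 3′ along the gene's own strand, with the 2 motifs in capitals: Hormad1 (chr3:95559427-95559676, plus strand) and Sycp3 (chr10:88459337-88459586, plus) hold both, Smc1b (chr15:85131958-85132207, minus) has the E2F core, Sycp1 (chr3:102936101-102936350, minus) and Stk31 (chr6:49395354-49395603, plus, its downstream start site) have the E-box, and Syce1 (chr7:140787855-140788104, minus) has neither.
Hormad1: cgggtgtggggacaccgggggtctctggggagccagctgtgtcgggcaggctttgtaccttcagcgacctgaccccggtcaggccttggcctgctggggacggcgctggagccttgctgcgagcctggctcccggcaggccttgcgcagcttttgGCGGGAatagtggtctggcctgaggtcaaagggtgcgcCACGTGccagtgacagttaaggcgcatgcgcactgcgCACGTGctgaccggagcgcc
Sycp3: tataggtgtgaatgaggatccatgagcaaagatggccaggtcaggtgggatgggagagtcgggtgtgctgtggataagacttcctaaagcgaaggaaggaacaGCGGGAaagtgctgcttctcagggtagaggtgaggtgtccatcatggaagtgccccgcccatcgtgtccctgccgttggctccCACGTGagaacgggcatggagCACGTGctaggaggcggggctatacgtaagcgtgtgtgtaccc
Smc1b: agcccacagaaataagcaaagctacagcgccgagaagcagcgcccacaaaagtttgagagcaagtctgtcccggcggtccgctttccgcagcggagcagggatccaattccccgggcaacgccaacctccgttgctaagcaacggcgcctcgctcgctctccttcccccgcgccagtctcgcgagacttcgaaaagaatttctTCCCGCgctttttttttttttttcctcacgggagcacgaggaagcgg
Sycp1: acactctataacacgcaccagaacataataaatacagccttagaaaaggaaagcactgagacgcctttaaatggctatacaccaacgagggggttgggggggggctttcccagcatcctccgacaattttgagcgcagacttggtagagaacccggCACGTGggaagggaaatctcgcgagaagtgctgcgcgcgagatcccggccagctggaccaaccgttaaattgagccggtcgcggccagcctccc
Stk31: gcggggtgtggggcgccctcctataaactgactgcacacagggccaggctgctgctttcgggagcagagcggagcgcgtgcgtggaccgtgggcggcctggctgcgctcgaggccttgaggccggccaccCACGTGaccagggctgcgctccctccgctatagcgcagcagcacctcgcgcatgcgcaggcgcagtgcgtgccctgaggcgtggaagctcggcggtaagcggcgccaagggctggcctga
Syce1: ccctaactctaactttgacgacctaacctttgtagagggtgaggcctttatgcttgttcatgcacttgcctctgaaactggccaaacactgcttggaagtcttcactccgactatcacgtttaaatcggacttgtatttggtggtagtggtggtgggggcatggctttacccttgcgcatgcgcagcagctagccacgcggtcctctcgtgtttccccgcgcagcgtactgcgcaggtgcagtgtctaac

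**Figure D1:**
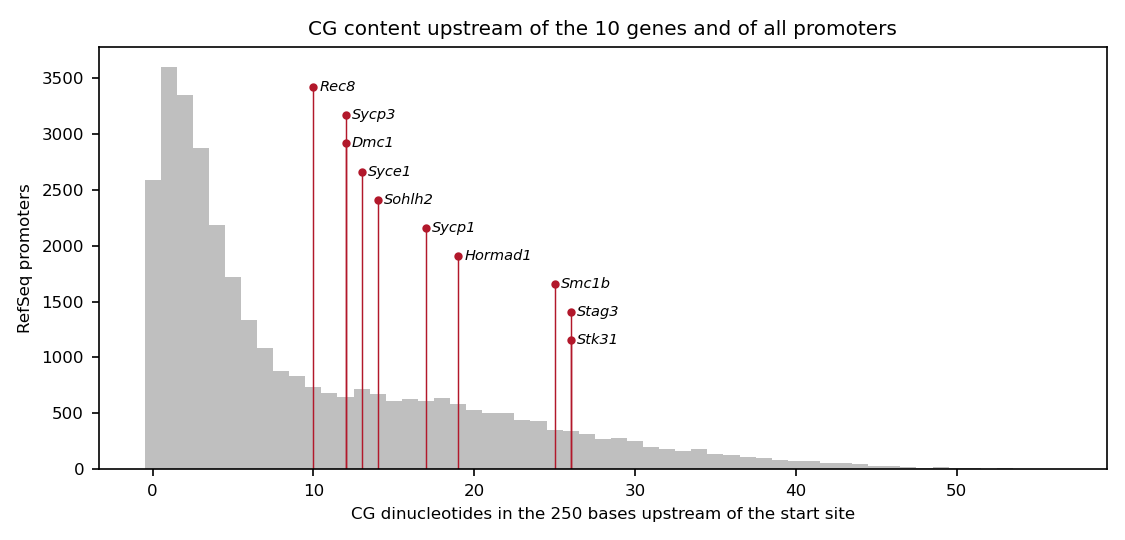
Number of CG dinucleotides (x axis) in the 250 bases upstream of RefSeq start sites. Grey bars count all 32851 promoters (y axis), and red lines mark the 10 genes, at the start site with more CG where a gene has 2; line heights serve to separate the names, and all 10 lie at 10 CG or above.

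Library totals ranged from 2020254 to 26936415 counts. Day 0 and day 4 of E14 in diff3 were shallow, with 3376500 and 2020254 counts, and the others had at least 11847559. A floor of 3 counts equals 0.888 and 1.48 CPM (counts scaled to the same library total) in these shallow libraries and 0.111 to 0.253 CPM in the others. The E14 day 0 library of diff3 also stood apart: of 6945 genes with at least 10 CPM in all other libraries, 118 (1.70%) had no counts in it, and 0 such genes were found in any other library. For part of the E14 calls and list medians that use day 0, values without that library are given beside them. Such values leave 1 library at day 0, which is assumed to vary like the other groups. The labelled states fitted their naive and primed markers. The 5 naive markers (Klf4, Esrrb, Tfcp2l1, Zfp42 and Nanog) summed to 3757 to 5128 CPM at day 0 and to 45.8 to 345 CPM in all later libraries. The 5 primed markers (Fgf5, Dnmt3b, Pou3f1, Otx2 and Lefty1) summed to 44.8 to 112 CPM at day 0 and to 1012 to 2809 CPM later. The pluripotency genes Pou5f1 and Sox2 fell: their sum averaged 1603 CPM at day 0 and 566 CPM at days 27 to 30 in PGK. In E14 that sum averaged 2180 and 653 CPM. Sox2 alone averaged 415 and 42.9 CPM in PGK and 678 and 68.7 CPM in E14.

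All 10 genes had counts in day 0 embryonic stem cells of both lines, and 4 of them had no counts in either PGK library of days 27 to 30. The summed level of the 10 genes in PGK was 886 and 528 CPM at day 0 (the diff2 library is given first throughout), 364 and 170 CPM at day 4, and between 31.2 and 71.1 CPM in the 6 libraries from day 10 on. In E14 it was 507 and 122 CPM at day 0, 239 and 400 at day 4, and between 78.2 and 105 CPM from day 10 on. Every library from day 10 on was thus below every earlier library of its line. In these bulk samples, fewer cells that transcribe a gene and less RNA per cell cannot be told apart. Per kb of exon, the PGK day 0 order was Syce1 (48.1 ± 7.7 CPM per kb, SD, n = 2), Sohlh2 (42.7 ± 28.2), Stag3 (41.01 ± 26.4), Hormad1 (33.5 ± 5.1), Sycp1 (27.2 ± 4.2), Smc1b (15.5 ± 9.8), Stk31 (11.3 ± 2.4), Rec8 (10.2 ± 1.4), Sycp3 (8.62 ± 1.20) and Dmc1 (2.27 ± 2.40). Neighbours in this order lay within the larger of their SDs, except Hormad1 over Sycp1, Sycp1 over Smc1b, Rec8 over Sycp3 and Sycp3 over Dmc1.

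**Figure D2:**
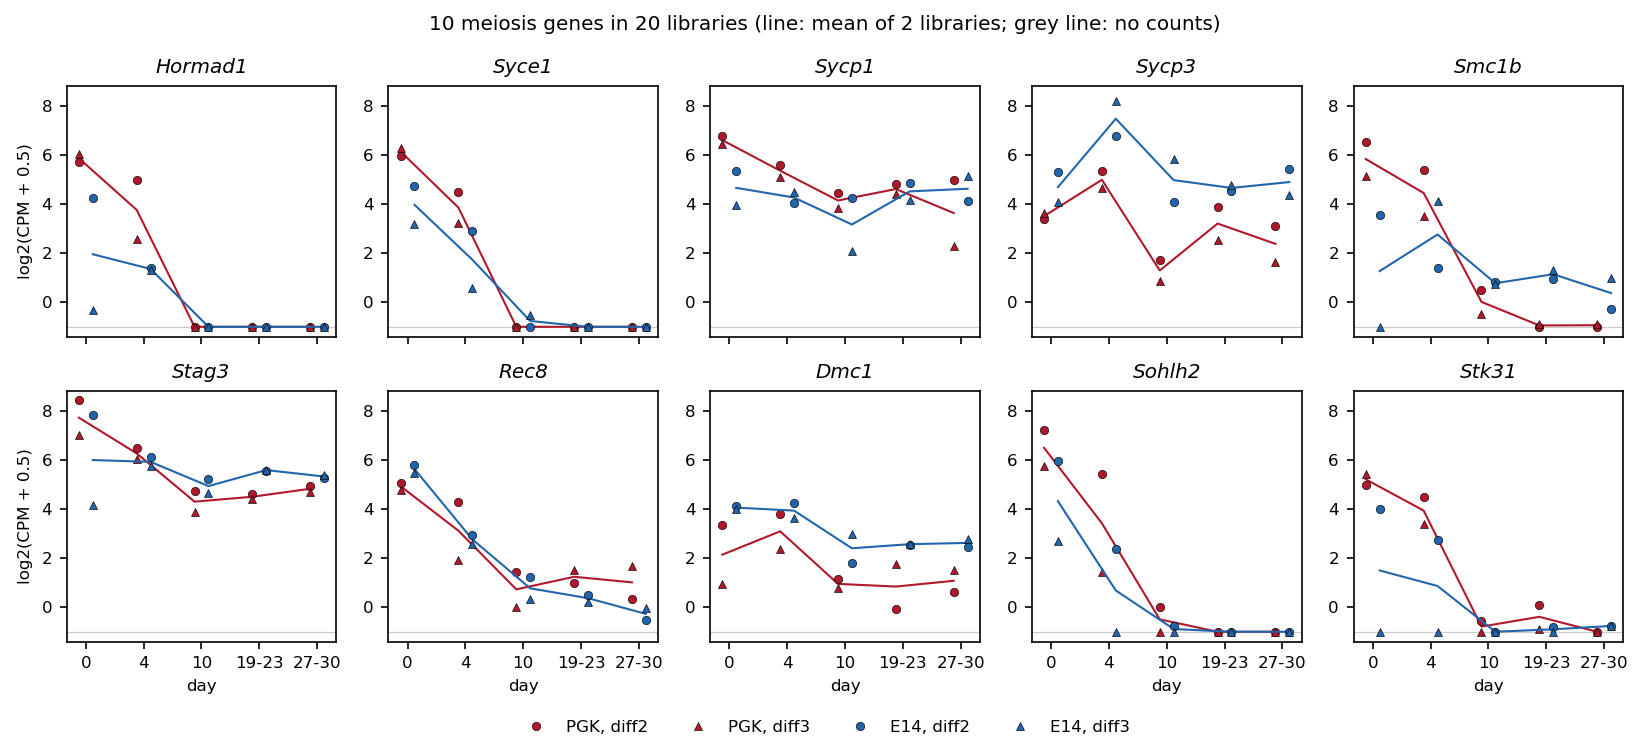
Levels of the 10 genes, as log2(CPM + 0.5) on the y axis, at the 5 stages on the x axis. PGK is red and E14 blue, circles are diff2 and triangles diff3 libraries, lines join the means of 2 libraries, and the grey line marks no counts. Hormad1, Syce1, Sohlh2 and Stk31 reach or approach the grey line at day 10, and Sycp1, Sycp3, Stag3 and Dmc1 do not.

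The axis gene Hormad1 and the central element gene Syce1 were at or near 0 in both lines from day 10 on. In PGK, Hormad1 had 51.6 and 64.1 CPM at day 0, 30.5 and 5.39 at day 4, and no counts in the 6 libraries from day 10 on. In E14, Hormad1 had 18.3 and 0.296 CPM at day 0, the second value from 1 count in the library that stands apart, 2.14 and 1.98 CPM at day 4, and no counts from day 10 on. The highest levels were thus those of day 0, and in PGK neither day 10 library reached a day 4 library. At day 10 in PGK, Hormad1 was at least 210.5-fold lower than at day 4 (0 counts in the day 10 group against 553 in the day 4 group, edgeR adjusted p = 0.022), where the bound sets 3 counts over the day 10 group. That call was lost without either day 10 library of PGK (adjusted p = 0.061 without diff2 and 0.13 without diff3). For Syce1 the PGK levels were 62.2 and 78.1 CPM at day 0 and 22.0 and 8.77 CPM at day 4, with no counts later. The E14 levels of Syce1 were 26.4 and 8.59 CPM at day 0, 6.92 and 0.990 at day 4, and 5 counts in 1 of the 6 later libraries, that of day 10 in diff3. The PGK libraries of Syce1 did not overlap between days 0, 4 and 10. Syce1 fell at day 4 against day 0 in PGK, with a log2 fold change of -2.26 ± 0.53 (SE, as for all log2 values below; adjusted p = 0.031, and 0.055 to 0.12 without either day 0 library or the diff3 library of day 4), and fell again at day 10, to at least 180.1-fold below day 4 (adjusted p = 0.0077). The day 10 call of Syce1 held under each alternative run, with adjusted p of at most 0.038.

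The transverse filament gene Sycp1 kept a level of at least 3.72 CPM in every library. Its PGK levels were 107 and 86.4 CPM at day 0, 48.0 and 34.0 at day 4, 21.3 and 13.8 at day 10, 27.7 and 20.5 at days 19 to 23, and 31.2 and 4.34 at days 27 to 30. Its E14 levels were 40.2 and 15.1 CPM at day 0, 16.0 and 21.8 at day 4, 18.5 and 3.72 at day 10, 28.3 and 17.6 at days 19 to 23, and 16.8 and 34.4 at days 27 to 30. In PGK both day 0 libraries were above all others, and in E14 the stages overlapped. At days 27 to 30 Sycp1 fell against day 0 in PGK, with a log2 fold change of -2.53 ± 0.69 (adjusted p = 0.024), a call lost without either PGK day 0 library (adjusted p = 0.083 without diff2 and 0.055 without diff3). In E14 the same change of Sycp1 was -0.16 ± 0.79 (adjusted p = 0.92), and -0.71 (adjusted p = 0.57) without the day 0 library that stands apart. The PGK call was also lost without the low-count filter (adjusted p = 0.11) and with a term for a code in library titles (adjusted p = 0.054).

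Sycp3, the gene of the axial and lateral elements, had its highest level at day 4 in both lines. In PGK it had 9.82 and 12.0 CPM at day 0, 39.6 and 24.4 at day 4, 2.79 and 1.33 at day 10, 14.3 and 5.24 at days 19 to 23, and 8.09 and 2.64 at days 27 to 30. In E14, Sycp3 had 38.9 and 16.3 CPM at day 0, 108 and 289 at day 4, 16.6 and 56.8 at day 10, 22.4 and 27.04 at days 19 to 23, and 41.8 and 20.3 at days 27 to 30. Both day 4 libraries of each line were above every other library of that line. In E14 Sycp3 rose at day 4 against day 0, with a log2 fold change of 2.83 ± 0.75 (adjusted p = 0.039), and in PGK the same change was 1.49 ± 0.67 (adjusted p = 0.17). The E14 rise was not called without the shallow day 4 library (1.97, adjusted p = 0.29), without its diff2 partner (3.38, adjusted p = 0.058), without the day 0 library that stands apart (2.32, adjusted p = 0.13), or without both shallow libraries (1.47, adjusted p = 0.42). With the experiment as a replicate block it was 2.72, with adjusted p = 0.054. At day 10 Sycp3 fell against day 4 in PGK, at -4.01 ± 0.75 (adjusted p = 0.033), and this call was lost without either day 10 library or without the diff2 library of day 4 (adjusted p = 0.078 to 0.24). Chpt1, which overlaps Sycp3 on the other strand, had 127 and 13 counts at day 4 in E14, against 520 and 31 at day 0, and in PGK 71 and 199 counts at day 10, against 163 and 360 at day 4. Its part in the Sycp3 values was not tested.

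Of the cohesin genes in PGK, Smc1b fell to 1 count, and Rec8 and Stag3 fell but kept counts in every library. In PGK, Smc1b had 91.0 and 34.7 CPM at day 0, 40.8 and 11.01 at day 4, 0.928 and 0.214 at day 10, and 1 count in 1 library at each later stage. In E14, Smc1b had 11.1 CPM and no counts at day 0, 2.14 and 16.8 CPM at day 4, and 0.337 to 1.99 CPM in the 6 libraries from day 10 on. The diff3 value at day 4 rests on 34 counts. Smc1b fell in PGK at day 10 against day 4, with a log2 fold change of -5.65 ± 0.95 (adjusted p = 0.022), and the E14 change of -2.92 ± 1.71 was not called (adjusted p = 0.72). That PGK call was lost without the diff3 library of day 10 (adjusted p = 0.15) or the diff2 library of day 4 (adjusted p = 0.061). Over the whole course in PGK, 1 count of Smc1b at days 27 to 30 stood against 1863 at day 0, a ratio of 2491 after scaling to depth (95% counting interval 447 to 98441, adjusted p = 0.00024).

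Stag3 had the highest CPM of the 10 genes at day 0 in PGK. Its PGK levels were 342 and 128 CPM at day 0, 87.9 and 65.8 at day 4, 25.7 and 14.1 at day 10, 23.7 and 20.5 at days 19 to 23, and 30.0 and 25.6 at days 27 to 30. Its E14 levels were 224 and 17.5 CPM at day 0, 68.1 and 52.5 at day 4, 36.8 and 24.3 at day 10, 46.7 and 47.9 at days 19 to 23, and 38.0 and 40.8 at days 27 to 30. The 3 early stages of PGK did not overlap, whereas in E14 the day 0 libraries enclosed all later ones. In PGK Stag3 fell at day 4 against day 0, with a log2 fold change of -1.68 ± 0.43 (adjusted p = 0.026), and at day 10 against day 4 the value was -1.98 ± 0.44, which missed the threshold (adjusted p = 0.060). With the replicate block the day 10 change was -2.02 with adjusted p = 0.0074. The day 4 call of Stag3 was lost without the diff2 library of day 0 (-0.80, adjusted p = 0.21) and without either day 4 library (adjusted p = 0.065 and 0.15).

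Rec8, the cohesin subunit that links the ends of the SMC arms, had 32.9 and 27.1 CPM at day 0 in PGK, 18.9 and 3.33 at day 4, 2.19 and 0.514 at day 10, 1.47 and 2.32 at days 19 to 23, and 0.754 and 2.74 at days 27 to 30. In E14 Rec8 had 54.8 and 43.2 CPM at day 0, 7.22 and 5.44 at day 4, 1.83 and 0.743 at day 10, 0.928 and 0.664 at days 19 to 23, and 0.192 and 0.489 at days 27 to 30. The E14 libraries did not overlap between days 0, 4 and 10, and the library that stands apart was close to its diff2 partner for this gene. Rec8 fell at day 4 against day 0 in E14, with a log2 fold change of -2.92 ± 0.81 (adjusted p = 0.048, 0.068 with the replicate block, and 0.15 and 0.23 without the diff2 or the diff3 library of day 4), and at days 27 to 30 the change against day 0 was -7.14 ± 0.99 (adjusted p = 0.0014). The late change of Rec8 in E14 was called under all 10 alternatives, with values of -7.90 to -6.65.

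The recombinase gene Dmc1 was low and kept a residual level in both lines. In PGK it had 9.66 and 1.40 CPM at day 0, 13.4 and 4.70 at day 4, 1.69 and 1.20 at day 10, 0.447 and 2.88 at days 19 to 23, and 1.05 and 2.36 at days 27 to 30. In E14, Dmc1 had 16.8 and 15.4 CPM at day 0, 18.3 and 11.9 at day 4, 2.99 and 7.43 at day 10, 5.31 and 5.52 at days 19 to 23, and 4.95 and 6.39 at days 27 to 30. Within each PGK experiment the highest Dmc1 level was that of day 4, though the PGK libraries of days 0 and 4 overlapped. All E14 libraries from day 10 on were below all E14 libraries of days 0 and 4. No change of Dmc1 passed the threshold: at days 27 to 30 it was -1.77 ± 1.10 against day 0 in PGK (adjusted p = 0.27) and -1.51 ± 0.79 in E14 (adjusted p = 0.23, and 0.15 without the day 0 library that stands apart, at -1.62).

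The transcription factor gene Sohlh2 and the Tudor domain gene Stk31 were lost from PGK. In PGK, Sohlh2 had 148 and 53.6 CPM at day 0, 41.7 and 2.19 at day 4, 6 counts in the diff2 library of day 10, and none later. In E14, Sohlh2 had 60.9 and 5.92 CPM at day 0, 4.64 CPM and no counts at day 4, 1 count in the diff2 library of day 10, and none later. The diff2 library was the higher at both early stages in both lines. At day 10 against day 4 in PGK the change was -6.80 ± 1.70 (adjusted p = 0.12), and with the replicate block it was -6.26 with adjusted p = 0.021. At days 27 to 30 Sohlh2 was at least 1515-fold below day 0 in PGK (adjusted p = 0.0046, 0.051 without the diff3 library of day 0 and 0.11 without the low-count filter) and at least 506-fold below in E14 (adjusted p = 0.019). In PGK, Stk31 had 31.2 and 42.3 CPM at day 0, 21.7 and 10.0 at day 4, 2 counts at day 10, 9 counts and 1 count at days 19 to 23, and none at days 27 to 30. In E14, Stk31 had 15.4 CPM at day 0 and 6.11 CPM at day 4 in diff2, no counts in the shallow diff3 libraries of both stages, and at most 2 counts in any later library. Stk31 fell in PGK at day 10 against day 4, with a ratio of pooled counts of 257 (95% counting interval 70.8 to 2126, adjusted p = 0.025), and that call was lost without the diff3 library of day 10 (adjusted p = 0.15) or the diff2 library of day 4 (adjusted p = 0.063).

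The change from day 0 to day 4 asks which of the genes move as cells leave 2i. In PGK, 2 of the 10 fell (Syce1 and Stag3) and 0 rose, against 6.44% of 15284 tested genes called lower and 8.35% called higher. The median log2 fold change over the 10 genes was -1.43, against -0.01 over all tested genes. Without overlap between the 4 libraries, 7 genes were lower at day 4 and 1, Sycp3, was higher, against 25.4% and 29.3% of tested genes. Smc1b and Dmc1 overlapped. With the replicate block Sohlh2 was called as well, at -3.27 (adjusted p = 0.020). In E14, 1 of the 10 rose (Sycp3) and 1 fell (Rec8), against 5.16% of 14501 tested genes called higher and 4.4% called lower (9.56% in either direction), and with the replicate block neither was called. The E14 median was -1.14, against 0.15 over all tested genes, and -2.04 without the day 0 library that stands apart. Without the day 0 library that stands apart, Stag3 was called lower in E14 (-1.91, adjusted p = 0.010) and Sycp3 was not called. Without its diff2 partner the Stag3 change turned to 1.89 (adjusted p = 0.012), so the direction of Stag3 in E14 rests on which day 0 library is kept.

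On the log2 scale, the change from day 4 to day 10 held the largest drop of most of these genes in PGK. There 5 of the 10 fell (Hormad1, Syce1, Sycp3, Smc1b and Stk31) and 0 rose, against 0.465% and 1.05% of tested genes called lower and higher (1.51% in either direction). All 10 were lower in both day 10 libraries than in both day 4 libraries, and 18.9% of tested genes were. The median over the 10 genes was -4.83, also with the genes without counts set at their bound, against -0.01 over all tested genes. With the replicate block 7 fell, the 5 named and Stag3 and Sohlh2, among 351 genes called in place of 231. The number of the 10 that fell was 1 without the diff3 library of PGK day 10, 2 without the diff2 library of PGK day 4 and 3 without the diff2 library of PGK day 10. At day 4 every one of the 10 was higher in diff2 than in diff3 in PGK. In E14, 0 of the 10 were called by edgeR, against 0.186% of tested genes. An unadjusted p under 0.05 was reached by 6 of the 10 and by 1250 of 14501 tested genes. DESeq2 called 3 of the 10 lower (Syce1, Sycp3 and Rec8), and 119 of all tested genes. The E14 median was -2.66, against 0.09 over all tested genes, and 7 genes were lower without overlap, against 13.2% of tested genes.

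From day 10 on, none of the 10 genes was called in a step between stages. Between day 10 and days 19 to 23, and between days 19 to 23 and days 27 to 30, edgeR called 0 of the 10 genes in either line and 0% of tested genes. In PGK, 2 of the 10 (Smc1b and Sycp3) had an unadjusted p under 0.05 in the first step and 1 (Stk31) in the second. Smc1b went from 0.928 and 0.214 CPM to 1 count in 1 library, and Sycp3 from 2.79 and 1.33 to 14.3 and 5.24 CPM. Stk31 went from 9 counts and 1 count to none. Of 15284 tested genes, 208 and 231 had such a p in these steps. In E14 0 of the 10 had one in either step, against 938 and 106 of 14501 tested genes. DESeq2 called none of the 10 in these 4 comparisons. The median over the 10 genes lay between -0.04 and 0.19 in these steps.

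Over the whole course, days 27 to 30 against day 0, 8 of the 10 genes fell in PGK, against 12% of tested genes called lower, and 0 rose, against 13% called higher (25.1% in either direction). Hormad1 was at least 869.7-fold lower (adjusted p = 0.00096), Syce1 at least 1054-fold (adjusted p = 0.00019) and Stk31 at least 552-fold (adjusted p = 0.00079). Of the genes that kept counts, Stag3 fell by 3.16 ± 0.46 on the log2 scale (adjusted p = 0.0009) and Rec8 by 4.18 ± 1.0 (adjusted p = 0.013, and 0.078 without the diff2 library of days 27 to 30). Sycp3 (-1.10 ± 0.67, adjusted p = 0.25) and Dmc1 were not called. In E14, 4 of the 10 fell, against 4.99% of tested genes called lower, and 0 rose, against 8.73% called higher (13.7% in either direction). They were Hormad1 (at least 141-fold, adjusted p = 0.038, and 0.052 with the replicate block), Syce1 (at least 265-fold, adjusted p = 0.014), Sohlh2 and Rec8. Without the day 0 library that stands apart 6 fell, with Stag3 (-2.56, adjusted p = 0.0019) and Stk31 (-7.38, adjusted p = 0.018) added. The Hormad1 call was lost without its diff2 partner (adjusted p = 0.16) and with the code term (adjusted p = 0.12), and DESeq2 did not call Sohlh2 (adjusted p = 0.0502). Without either library of days 27 to 30 the E14 calls of Hormad1, Syce1 and Sohlh2 were lost (adjusted p = 0.086 to 0.18), and Rec8 alone was left. The median over the 10 genes was -7.67 in PGK and -4.55 in E14, or -6.64 and -4.55 with genes without counts at their bound, against -0.06 and 0.19 over all tested genes. Without the day 0 library that stands apart, the E14 median was -5.49, against 0.07 over all tested genes.

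**Figure D3:**
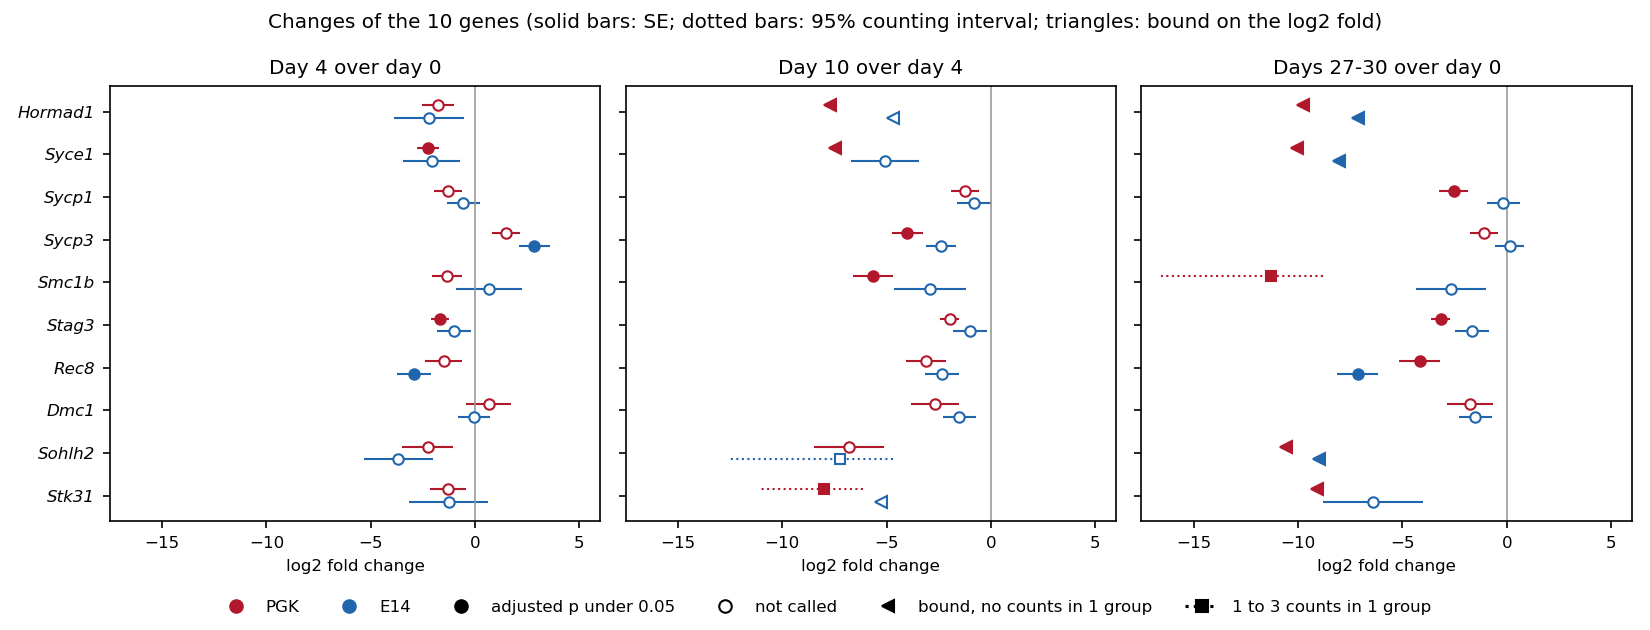
Log2 fold changes (x axis) of the 10 genes (y axis) for day 4 over day 0, day 10 over day 4 and days 27 to 30 over day 0, with PGK in red above E14 in blue. Circles with solid bars are edgeR estimates ± SE, triangles are bounds where a group has no counts, squares with dotted bars are ratios of pooled counts with their 95% counting interval where a group has 1 to 3 counts, and filled symbols have an adjusted p under 0.05; filled symbols left of 0 are most frequent in PGK.

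PGK and E14 were compared at each stage, and 0 of the 10 genes passed the threshold at any of the 5 stages. The share of 15732 tested genes called was 0.509% at day 0 (0.286% higher in PGK, 0.222% lower), 0.165% at day 4 (0.14% higher, 0.0254% lower) and 0.0636% at day 10 (0.0445% higher, 0.0191% lower). It was 0.0636% at days 19 to 23 (0.0381% higher, 0.0254% lower) and 0.0572% at days 27 to 30 (0.0318% higher, 0.0254% lower). At day 0, 5 genes were higher in both PGK libraries than in both E14 libraries (Hormad1, Syce1, Sycp1, Smc1b and Stk31), against 20.3% of tested genes, and 3 were lower (Sycp3, Rec8 and Dmc1), against 13% of tested genes. Each of these orders also held against the E14 diff2 library alone. In the E14 library that stands apart, all 10 genes were lower than in that diff2 partner. The largest log2 difference of the 10 at day 0 was that of Smc1b, at 62.8 ± 39.8 CPM in PGK and 5.56 ± 7.86 CPM in E14 (SD, n = 2 each, log2 difference 3.44 ± 1.32, adjusted p = 0.29), where the E14 mean includes no counts in the library that stands apart. Without the E14 diff2 library of day 0, so that the library that stands apart was alone, 4 genes were called higher in PGK (Hormad1, Smc1b, Stag3 and Stk31), among 3317 genes called. Sycp3 was lower in both PGK libraries than in both E14 libraries at every stage. At day 10 it had 2.06 ± 1.03 CPM in PGK and 36.7 ± 28.4 CPM in E14 (log2 difference -4.24 ± 0.83, adjusted p = 0.094). DESeq2 called Sycp3 at day 4 and day 10. Dmc1 was lower in this way at every stage but day 4. At the stages after day 0, in order, 1, 3, 4 and 5 of the 10 were lower, against 14.4%, 12.3%, 28.6% and 24.5% of tested genes. In the same order 4, 0, 1 and 1 were higher in PGK, against 20.9%, 13.9%, 23.5% and 15.5%. Unadjusted p was under 0.05 for 2 of the 10 genes at day 0, 2 at day 4, 1 at day 10, 1 at days 19 to 23 and 3 at days 27 to 30. Among the 15732 tested genes it was under 0.05 for 1931, 1054, 579, 715 and 385 at these stages in order. The difference between the lines in the change itself, PGK minus E14, was called for 0 of the 10 genes from day 0 to day 4, against 0.0763% of tested genes (0.0381% in each direction), and for 0 from day 4 to day 10, against 0.0127% (0.00636% in each). DESeq2 also called 0 in both, and an unadjusted p under 0.05 was reached once, by Syce1 in the second. Of the 15732 tested genes, 1165 reached one in the first and 659 in the second.

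The cohesin genes have mitotic relatives, which were read beside them. Of the 5 genes Smc1a, Smc3, Rad21, Stag1 and Stag2, 1 rose at day 4 against day 0 in PGK and in E14, Stag2 in both, and 0 fell. Of all tested genes, 8.35% rose and 6.44% fell in PGK, and 5.16% rose and 4.4% fell in E14. Stag2, a cohesin subunit of dividing cells, had 409 and 477 CPM at day 4 in PGK, against 262 and 194 CPM at day 0 (log2 fold change 0.89 ± 0.21, adjusted p = 0.017). In E14 Stag2 had 376 and 462 CPM at day 4, against 138 and 95.4 CPM at day 0 (1.86 ± 0.33, adjusted p = 0.0070, and 1.58 with adjusted p = 0.032 without the day 0 library that stands apart). The medians of the 5 between day 10 and day 4 were -0.20 in PGK and -0.42 in E14. In that step 0 of the 5 were called, against 1.51% of tested genes in PGK and 0.186% in E14. As a share of the CPM per kb of Stag3, Stag1 and Stag2 together, Stag3 made up 45.2% ± 15.7 at day 0 in PGK, 15.9% ± 5.0 at day 4, 5.57% ± 2.70 at day 10, 5.24% ± 0.27 at days 19 to 23 and 6.70% ± 0.49 at days 27 to 30 (SD, n = 2). In E14 the Stag3 share was 53.9% and 9.04% at day 0, so the experiments differed there, and 8.37% ± 0.19 at days 27 to 30. Smc1b made up 16.5% ± 6.7 of Smc1b and Smc1a at day 0 in PGK and 0.261% ± 0.230 at day 10. Rec8 made up 17.3% ± 3.3 of Rec8 and Rad21 at day 0 in E14, the highest share of this gene, and 0.105% ± 0.060 at days 27 to 30.

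**Figure D4:**
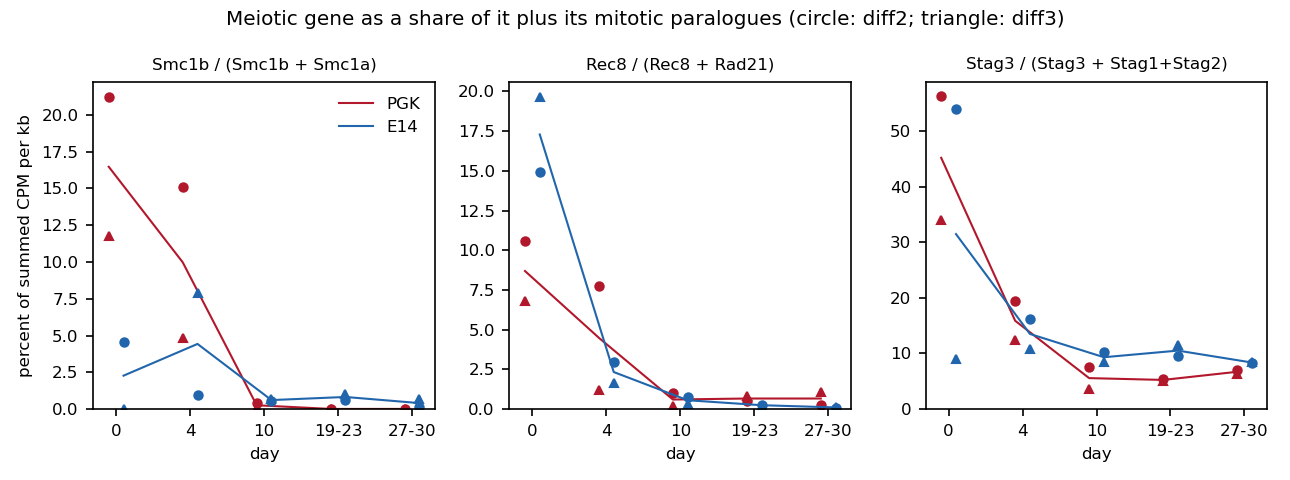
Share of the meiotic gene in the summed CPM per kb of it and its mitotic relatives (y axis, percent) at the 5 stages (x axis). PGK is red and E14 blue, circles are diff2 and triangles diff3 libraries, and lines join means of 2; the Stag3 share in PGK is 45.2% at day 0 and 5.57% at day 10.

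Other meiosis genes did not all follow the 10. Of a list of 38 found in the files, 30 were tested in PGK and 28 in E14. In PGK 2 rose at day 4 against day 0 (Cpeb1 and Tex15) and 0 fell, against 8.35% and 6.44% of tested genes. At day 10 against day 4 in PGK, 3 fell (Psma8, Gm1564 and Tex11) and 0 rose, against 0.465% and 1.05%. Over the whole PGK course 10 fell and 1 rose, against 12% and 13%. In E14 1 rose at day 4 (Sycp2) and 0 fell, against 5.16% and 4.4% of tested genes. At day 10 in E14 0 were called, against 0.186%. Over the whole E14 course 2 fell (Psma8 and Tex11) and 0 rose, against 4.99% and 8.73%. Without the day 0 library that stands apart, 34 were tested in E14, with 1 rise (Gm1564 in place of Sycp2) and 0 falls at day 4 and 5 falls over the whole course. The medians over the tested genes of this list were -0.04 at day 4, -1.38 at day 10 (-1.15 with bounds) and -1.06 over the whole course in PGK, against -0.01, -0.01 and -0.06 over all tested genes. Psma8, a proteasome subunit of spermatocytes, had 0.506 and 0.129 CPM at day 10 in PGK, against 33.0 and 8.72 CPM at day 4 (log2 fold change -6.18 ± 0.99, adjusted p = 0.022). Tex11, an X-linked factor of meiotic recombination, had 1 count in the PGK day 10 libraries, against 9.89 and 2.10 CPM at day 4 (adjusted p = 0.041). Gm1564, the older symbol of Meioc, which acts at meiotic prophase, had 5.74 and 3.90 CPM at day 10, against 47.7 and 23.4 CPM at day 4 in PGK (-2.91 ± 0.58, adjusted p = 0.040). Sycp2, the partner of Sycp3 in the axial element, had 12.8 and 5.94 CPM at day 4 in E14, against 0.298 CPM and no counts at day 0 (5.51 ± 1.49, adjusted p = 0.042). Without the day 0 library that stands apart the Sycp2 value was 4.95 and the call was lost (adjusted p = 0.067). Both E14 libraries of day 4 were above all others for Sycp2, as for Sycp3. Cpeb1, a cytoplasmic polyadenylation factor, went the other way from the 10 genes over the whole course in PGK, with 24.1 and 31.3 CPM at days 27 to 30, against 4.63 and 4.07 CPM at day 0 (2.60 ± 0.38, adjusted p = 0.00093). Among the other named falls of the whole course in PGK, Mcmdc2, which acts in meiotic recombination, was at least 90.3-fold lower, Mlh3, a mismatch repair gene needed for crossovers, fell by 1.91 ± 0.51 (adjusted p = 0.021), and Ccnb1ip1, a crossover factor, fell by 1.18 ± 0.33 (adjusted p = 0.026). Stra8, which acts at the entry into meiosis, had 1.54 and 1.496 CPM at day 0 in PGK, 5.89 CPM and no counts at day 0 in E14, and at most 1 count in any later library. Spo11, which makes the breaks that start recombination, averaged at most 0.312 CPM in any group.

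Regulators of the germ line and germ cell markers were read beside these genes. Dazl, an RNA-binding protein of germ cells, had 7.995 and 3.47 CPM at day 4 in PGK, against 126 and 91.3 CPM at day 0. That fall was called (-4.32 ± 0.66, adjusted p = 0.0019), as was a further fall at day 10, to 1 count (adjusted p = 0.010). In E14 the day 4 change of Dazl was not called (-2.59 ± 1.24, adjusted p = 0.23). The other regulators tested at day 4 in PGK, Taf4b (0.21 ± 0.27, adjusted p = 0.66) and Taf7l (0.74 ± 1.33, adjusted p = 0.77), were not called. Ddx4, a germ cell RNA helicase, had its highest level at day 4, as Sycp3 did: it had 4.63 and 3.27 CPM at day 0 in PGK, 58.8 and 41.9 at day 4, and 0.928 and 0.643 CPM at day 10. In E14 Ddx4 had 12.3 and 14.5 CPM at day 0, 49.8 and 54.4 at day 4, and 0.416 and 0.470 CPM at day 10. The 7 primordial germ cell markers (Nanos3, Prdm1, Dppa3, Dnd1, Tfap2c, Ddx4 and Dazl) summed to 274 to 278 CPM at day 0 in PGK, 78.3 to 111 at day 4 and 30.1 to 93.4 from day 10 on. In E14 they summed to 209 to 269 CPM at day 0, 64.5 to 72.3 at day 4 and 20.0 to 94.2 from day 10 on. In E14 the summed markers were lower at day 4 than at day 0. The sum of the 10 genes in E14 averaged 319.8 CPM at day 4 and 314 CPM at day 0. Sycp3 alone gave 108 and 289 CPM of the day 4 sums of 239 and 400 CPM. The day 0 mean joins 507 CPM with 122 CPM from the library that stands apart. Within the list Ddx4 was highest at day 4 and Prdm1 reached 23.3 and 73.9 CPM at day 10 in PGK, against 9.59 to 12.4 CPM at day 4. The part of such cells in the result was not tested. The oocyte markers Zp1, Zp2, Zp3, Gdf9, Bmp15 and Figla summed to at most 5.70 CPM in any library, with Zp2 at 0 in all 20. The spermatocyte and spermatid markers Acr, Tnp1, Prm1, Prm2, Piwil1 and Ldhc summed to at most 13.2 CPM, with Tnp1 and Prm2 at 0 in all 20. The fibroblast and feeder markers (Col1a1, Col1a2, Col3a1, Thy1 and Pdgfrb) ran the other way, with 78.5 to 246 CPM at days 27 to 30 and 0 to 23.1 CPM at day 0, and their part was not tested. The Sertoli and granulosa markers (Amh, Foxl2, Sox9 and Dmrt1) summed to 12.1 to 15.9 CPM at days 27 to 30 and 10.8 to 20.4 CPM at day 0. Within that sum Sox9 averaged 8.45 CPM at days 27 to 30 and 0.0812 CPM at day 0 in PGK, and 12.1 and 0 CPM in E14, while Dmrt1 averaged 4.95 and 12.4 CPM in PGK and 1.41 and 18.4 CPM in E14.

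Among the known repressors of these genes, the DNA methyltransferases of new methylation rose at day 4 in both lines. The list was E2f6, Mga, Max, L3mbtl2, Pcgf6, Setdb1, Ehmt1, Ehmt2, Dnmt1, Uhrf1, Dnmt3a, Dnmt3b, Dnmt3l, Kdm5c and Prdm14. Of these 15, 4 rose and 1 fell at day 4 against day 0 in PGK, against 8.35% and 6.44% of tested genes. In E14 2 rose and 1 fell, against 5.16% and 4.4%. Uhrf1, not called, averaged 346 CPM at day 4 and 556 CPM at day 0 in PGK, and 252 and 525 CPM in E14. The E14 list median at day 4 without the day 0 library that stands apart was -0.35, against 0 over all tested genes. Dnmt3b, which sets new DNA methylation, averaged 1145 CPM at day 4 and 43.5 CPM at day 0 in PGK (4.65 ± 0.31, adjusted p = 2.8e-05), and 1657 and 26.7 CPM in E14 (5.98 ± 0.54, adjusted p = 0.00037). Dnmt3a averaged 269 CPM at day 4 and 32.5 CPM at day 0 in PGK (2.99 ± 0.44, adjusted p = 0.0014), and 364 and 38.6 CPM in E14 (3.31 ± 0.45, adjusted p = 0.0015). E2f6 rose by 1.04 ± 0.22 in PGK (adjusted p = 0.0095) and Ehmt1 by 0.68 ± 0.20 (adjusted p = 0.049). Prdm14, a factor of the naive state and of germ cells that opposes DNA methylation, fell in PGK (-5.40 ± 0.72, adjusted p = 0.0019) and in E14, where 3 counts were left at day 4 (adjusted p = 0.0023). Without the day 0 library that stands apart, 2 of the list still rose in E14 and 1 fell, with Dnmt3b at 5.88, Dnmt3a at 4.09 and adjusted p of at most 0.0019 for these and Prdm14. Between day 4 and day 10, 0 of the 15 were called in either line by edgeR, against 1.51% of tested genes in PGK and 0.186% in E14. With so few calls over all genes, 0 of 15 does not show that the list held steady. The list medians were -0.36 in PGK and -0.33 in E14. Whether any of these genes acts on the 10 was not tested.

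The members were alike in different degree. The Pearson r of each gene with the mean of the 10, on centred log2(CPM + 0.5) over the 10 libraries of a line, ranged in PGK from 0.67 for Sycp3 and 0.69 for Dmc1 to 0.99 for Hormad1. In E14 it ranged from 0.36 for Sycp3 and 0.40 for Sycp1 to 0.98 for Hormad1. Each r includes the gene itself in the mean, and the 10 libraries share the stage. The 5 genes outside the set with the highest r in PGK were Bin2 (0.994), BC055111 (0.993), Arhgap30 (0.991), Cyct (0.991) and Ptchd3 (0.991), among 15284 tested genes. In E14 they were Psma8 (0.989), Tex11 (0.977), Tuba3a (0.954), Naa11 (0.952) and Dazl (0.947), among 14501. Bin2 averaged 13.3 CPM at day 0, 9.06 at day 4 and 0.0844 at day 10 in PGK, and Naa11 averaged 16.1, 3.93 and 0.0416 CPM at those stages in E14.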

How the data were processed

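Polyadenylated RNA of 20 libraries was sequenced by the authors, who deposited raw counts per gene, per the file headers. The submitters' processing notes name CASAVA 1.8.2, Cuffdiff, DESeq2 and GRCm38 (mm10). For the aligner, the annotation and the use of strand, the sources used here name nothing. The deposited normalised and variance-stabilised tables were not used. Of 23361 entries, 27 carried names turned into dates and 2 names occurred more than once. Members were matched by exact symbol. The members, the other lists and the alternatives were chosen with earlier results of these data known.

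Counts were scaled by TMM, filtered with filterByExpr (minimum count 10) and tested with edgeR's quasi-likelihood test (edgeR 4.0.16, limma 3.58.1, R 4.3.3) within each line (15284 genes in PGK, 14501 in E14) and over both lines (15732), with Benjamini-Hochberg adjustment over all tested genes and a threshold of 0.05. All adjusted p are from edgeR unless another tool is named. All 10 members passed the filter. Residual degrees of freedom were 5, 5 and 10, and the common biological coefficients of variation were 0.44, 0.52 and 0.48. Each SE is the log2 fold change divided by the square root of F. CPM are counts scaled to the library's total. Where a group has no counts, a bound sets 3 counts over the group. Intervals and floors cover counting error only. The scripts were tested on simulated data.

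The labels name the experiment, diff2 or diff3, that libraries share, so equal numbers pair libraries. The differences between experiments correlated with r over 0.1 in 7 of 20 pairs of stages (range -0.21 to 0.51, 14979 genes). Among days 0, 4 and 10 the r was 0.40 to 0.51 in PGK and 0.14 to 0.23 in E14. Pairs with a later stage reached at most 0.11. The 6 libraries with a code in their title are the diff2 libraries of days 0, 4 and 10 in both lines. At those days the experiment and the code cannot be told apart. Alternatives were RLE size factors, no low-count filter, DESeq2 1.42.0, a replicate block, a term for the 6 libraries with a code in their title, leaving out each library, and leaving out both shallow E14 libraries together, which was chosen after seeing the data. All 10 members and 5 mitotic relatives of the cohesin genes were named whatever their values, as were up to 5 called genes of the other meiosis list per direction and comparison. The symbols Sycp2l, Six6os1, Rec114, Shoc1, Terb2, Meiosin and Rnf212 were not analysed here. Lengths and positions are from GENCODE M21, and promoter sequences from RefSeq GRCm38.p6.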

Additional observations from a re-analysis of the deposited data

Results flagged for a closer look

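The Stag3 and Sycp3 cases given here were picked from their values by a rule for differences between the lines, so they are descriptions. For Stag3, both PGK libraries of days 27 to 30 lay above both of days 19 to 23. The mean change in log2(CPM + 0.5) was 0.32, and 14.1% of tested genes were higher in this way in PGK. Both E14 libraries lay below, a mean change of -0.26, as did 20% of tested genes in E14. In this step edgeR called 0 tested genes in either line. Stag3 moved in opposite directions in the lines, and that difference was not tested for this step. For Sycp3, days 27 to 30 against day 0 gave a mean change of -1.13 in PGK and 0.21 in E14 on the same scale. Each experiment moved down in PGK and up in E14, and that difference was not tested for this span. Without the E14 day 0 library that stands apart, the fitted E14 log2 fold change of Sycp3 was -0.37. That fit sets the diff2 library of day 0 against both late libraries, without pairing. Within diff2 alone, Sycp3 in E14 went from 38.9 to 41.8 CPM. Without that library, the direction in E14 thus depends on whether libraries are paired.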

How the results depend on the processing

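Of 21 called values of the 10 genes, 7 kept their call under every alternative run: Syce1 at day 10 against day 4 in PGK, Hormad1, Syce1, Smc1b, Stag3 and Stk31 over the PGK course, and Rec8 over the E14 course. All 21 kept their call with RLE size factors, 20 with DESeq2, and 18 each without the filter, with the replicate block and with the code term; no called value changed sign. Depth limits E14 at days 0 and 4. The cause of the changes below was not tested, beyond the fewer samples or the other genes tested.

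Without the low-count filter, genes called were 439 for day 10 against day 4 in PGK, 139 for that step in E14, 59 for days 19 to 23 against day 10 in E14, 181 and 71 for PGK against E14 at days 0 and 4, and 52 and 14 for the differences between lines in the first and second step; 0 members fell in E14 at day 4. With DESeq2, steps in order gave 3460, 825, 4 and 3 genes in PGK and 2817, 499, 261 and 2 in E14, with 3476 over the whole E14 course. DESeq2 gave 685, 231, 75, 89 and 25 genes for PGK against E14 by stage and 198 and 56 for the differences between lines. By DESeq2, 3 members fell in E14 at day 10, and 1 was lower in PGK than in E14 at day 4 and at day 10. With the replicate block, 351 genes were called for day 10 against day 4 in PGK, 11 for days 19 to 23 against day 10 in E14, 43 for PGK against E14 at day 0, and 20 and 1 for the differences between lines; 0 members rose and 0 fell in E14 at day 4. Beside results named in the text, the pairing changed no other member call.

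With the code term, PGK gave 3698 genes at day 4 (4 members lower) and 655 at day 10; PGK against E14 gave 185, 66, 20 and 14 at days 0, 4, 10 and 27 to 30; the differences between lines gave 32 and 8; and 0 members rose in E14 at day 4. With RLE, 3 genes were called for days 19 to 23 against day 10 in E14. Without both shallow E14 libraries, E14 gave 887 genes at day 4 (0 members higher) and 78 at day 10, 7 members fell over the whole course, PGK against E14 gave 35 and 15 at days 0 and 4, and the differences between lines gave 1 and 5.

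Leaving out 1 library at a time gave 1366 to 2210 genes (0 to 3 members lower) for day 4 in PGK, 52 to 284 (1 to 6 lower) for day 10 and 2208 to 3644 (6 to 8 lower) over the course. In E14 it gave 474 to 4517 genes (0 to 3 members higher, 0 to 2 lower), 0 to 30, and 645 to 4941 (1 to 6 lower). For PGK against E14 it gave 24 to 3317 (0 to 4 members higher), 6 to 35, 9 to 14 (0 to 1 lower), 5 to 8 and 5 to 10 by stage. The differences between lines gave 1 to 2345 genes (0 to 2 members lower) and 0 to 5.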
